A study of Mus musculus with 24 samples.

Results

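The 40 genes described here carry out or drive DNA replication and mitosis. They were chosen by name as a list of cell cycle genes, with earlier results of these data known. All 40 were found among the 27179 gene rows of the count table by their Entrez identifiers. They were read as 20 replication genes and 20 mitosis genes. Cyclin A2 (Ccna2), which acts in both S phase and G2, was counted with the mitosis genes. RNA was sequenced from 3 populations sorted by flow cytometry from the colonic lamina propria of Nmur1 iCre-eGFP mice, in which the gene of the neuromedin U receptor NMUR1 drives an eGFP reporter together with Cre. The populations were eGFP+ group 2 innate lymphoid cells (ILC2; CD45+, lineage-negative, CD90.2+, CD127+, KLRG1+), eGFP+ CD4 T cells (NMUR1+ below) and eGFP- CD4 T cells (NMUR1- below), the T cells gated as CD45+CD3+CD5+CD4+. All mice, controls included, had received 3% dextran sulfate sodium (DSS), a colitis-inducing agent, for 5 days and then water for 3 days. They were injected every other day with the neuropeptide neuromedin U (NMU; mice 1 to 4) or with the vehicle PBS (mice 5 to 8). Each mouse gave 1 library per population, 24 libraries in 6 groups of 4, although the design text of the series counts 3 mice per treatment. The labels give no age or sex, and eGFP here reports the Nmur1 locus and not the receptor protein.

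Before a cell divides, the MCM2 to MCM7 proteins are loaded as a helicase ring at replication origins by CDC6 and CDT1. The ring is switched on by CDC45 and the GINS complex, while ribonucleotide reductase and thymidylate synthase supply deoxynucleotides and the clamp PCNA holds the polymerases on DNA. Most of these genes are transcribed at the G1 to S boundary by E2F factors. The mitosis genes follow in G2 and M, and among their products are CDK1, B-type cyclins, Aurora and Polo kinases and spindle and kinetochore proteins. Promoters of the later group are known for a CHR element (cell cycle genes homology region) and CCAAT boxes. In tissues, ILC2 and effector T cells are known to expand by local division when alarmins, neuropeptides or antigen activate them.

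The promoter letters of the replication and mitosis lists differed. Windows of 300 bases, 250 before and 50 after an annotated transcript start (RefSeq, GRCm38.p6), were found for 16 replication genes (18 windows) and 17 mitosis genes (17 windows). Searched on both strands, an E2F-like word stood in 61.1% of the replication windows, 17.6% of the mitosis windows and 9.57% of all 32851 windows. The letters counted as E2F-like were TTCCCGC, then with other middle letters TTCGCGC, further the form TTGCCGC, and lastly the form TTGGCGC. The CHR word TTTGAA stood in 16.7% of the replication windows, 70.6% of the mitosis windows and 17.9% of all windows. The word CCAAT stood in 77.8%, 94.1% and 37.4%, and it can share letters with an E2F-like word read on the other strand. In the 250 upstream bases alone an E2F-like word stood in 9 of 18 replication windows, 17.6% of mitosis and 7.89% of all windows, and the CHR shares were 16.7%, 41.2% and 16.0%, so part of the CHR matches of mitosis genes lay across or after the transcript start. No test was run on these shares. A match of letters is a description and not a bound site. The 4 promoters below are trimmed to the bases outside the annotated gene. Mcm5 and Asf1b are the members whose NMU difference in ILC2 passed the test, and Cdk1 and Top2a are examples of mitosis genes. They were picked among members given in full whose window held an E2F-like or CHR word, so they do not represent all members. In the 250 upstream bases Plk1 held no such word, and Ccnb1 held an E2F-like but no CHR word. Capitals mark the matched words, and each sequence reads 5′ to 3′ on the gene's strand.
Mcm5, chr8:75109259-75109467, plus strand, 3 E2F-like words, of which the last 2 overlap, and 1 CCAAT: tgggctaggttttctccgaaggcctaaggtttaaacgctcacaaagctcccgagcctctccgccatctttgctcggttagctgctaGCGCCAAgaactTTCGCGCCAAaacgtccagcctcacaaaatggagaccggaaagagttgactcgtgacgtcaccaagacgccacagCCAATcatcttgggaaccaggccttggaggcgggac
Asf1b, chr8:83955444-83955693, plus strand, 4 CCAAT and 1 CHR word: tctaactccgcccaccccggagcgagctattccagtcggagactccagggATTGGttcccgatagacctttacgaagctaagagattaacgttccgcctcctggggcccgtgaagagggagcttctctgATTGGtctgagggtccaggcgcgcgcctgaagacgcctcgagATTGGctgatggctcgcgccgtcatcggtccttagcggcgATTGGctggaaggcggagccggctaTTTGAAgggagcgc
Cdk1, chr10:69352913-69353162, minus strand, 2 E2F-like, 3 CCAAT and 2 CHR words: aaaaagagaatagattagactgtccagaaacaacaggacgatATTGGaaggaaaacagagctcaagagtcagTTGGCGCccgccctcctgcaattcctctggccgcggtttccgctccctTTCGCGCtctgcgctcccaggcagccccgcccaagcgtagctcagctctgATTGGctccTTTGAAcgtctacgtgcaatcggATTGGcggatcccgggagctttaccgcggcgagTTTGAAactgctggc
Top2a, chr11:99024200-99024439, minus strand, 6 CCAAT and 2 CHR words: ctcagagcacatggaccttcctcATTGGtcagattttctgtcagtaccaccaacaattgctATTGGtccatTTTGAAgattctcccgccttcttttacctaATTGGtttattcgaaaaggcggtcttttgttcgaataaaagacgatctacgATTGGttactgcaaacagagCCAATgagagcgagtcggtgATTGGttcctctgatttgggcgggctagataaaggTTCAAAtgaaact
Asf1b had no E2F-like word in the bases shown. A CHR word also stood in the windows of the replication genes Mcm2 and Cdc45.

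Total counts ran from 8485266 to 17854961 per library. Summed levels of marker genes followed the sorts, though not every single marker did. Levels are given as CPM, each count relative to a library size scaled by trimmed mean of M values. CD4 T cell markers summed to 320 to 702 CPM in ILC2 and 5437 to 7978 CPM in the CD4 libraries, and ILC2 markers to 12290 to 15897 CPM in ILC2 and 1917 to 6371 CPM in the CD4 libraries. Of the 10 ILC2 markers, 7 were higher in ILC2 than in NMUR1+ cells and 9 than in NMUR1- cells, beside 15.1% and 16.4% of all genes. Thy1 (CD90) was lower in ILC2 than in both (log2 -1.49 ± 0.16 SE and -2.27 ± 0.17). Il1rl1 and Klrg1 did not pass against NMUR1+ cells (edgeR adjusted p = 0.0572 and 0.0945). Immunoglobulin genes took 0.0241% to 7.93% of the counts in ILC2, 0.784% to 30.4% in NMUR1+ and 0.146% to 5.58% in NMUR1- CD4 libraries. The ILC2 library of NMU mouse 1 stood apart in the genes described here: 6 of its 20 mitosis genes and 4 of its 20 replication genes had no count, against none in the ILC2 of the other 3 NMU mice. The ILC2 of PBS mouse 5 had none for 5 mitosis and 3 replication genes. In such bulk libraries, fewer dividing cells and less of an RNA per cell cannot be told apart. For NMU against PBS, the p-values below measure the spread between mice. Those of the population comparisons and of the differences between NMU effects come from 1 fit of 24 libraries without the mouse as a block. They measure the spread between libraries within the 6 groups, and the pairing of libraries by mouse is left out of them.

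Both lists were lowest in ILC2 and highest in NMUR1- CD4 T cells. The median over the 20 replication genes of log2(CPM + 1) was 5.27 ± 0.70 in ILC2, 5.87 ± 0.28 in NMUR1+ and 6.66 ± 0.55 in NMUR1- cells (SD over 8 libraries). The median over the 20 mitosis genes was 3.18 ± 1.11, 5.21 ± 0.40 and 5.48 ± 0.72 on the same scale. The gap between ILC2 and T cells was thus wider for mitosis than for replication genes. Within a library, the summed CPM of the mitosis genes was 0.145 to 0.387 of that of the replication genes in ILC2, 0.531 to 0.849 in NMUR1+ and 0.422 to 0.641 in NMUR1- cells, so no ILC2 library reached the lowest T cell library. Over both treatments, mean CPM rose from ILC2 through NMUR1+ to NMUR1- cells for all 20 mitosis genes and for 19 of the 20 replication genes, Cdt1 being the exception. By treatment, the replication medians averaged 5.78 in ILC2 and 5.84 in NMUR1+ cells with NMU, and 4.76 and 5.90 with PBS. With NMU, ILC2 lay above NMUR1+ cells in mouse 2 (6.17 and 5.62) and mouse 4 (5.80 and 5.72), and below in mice 1 and 3. The mitosis medians averaged 3.49 and 5.17 with NMU, and 2.87 and 5.25 with PBS.

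**Figure D1:**
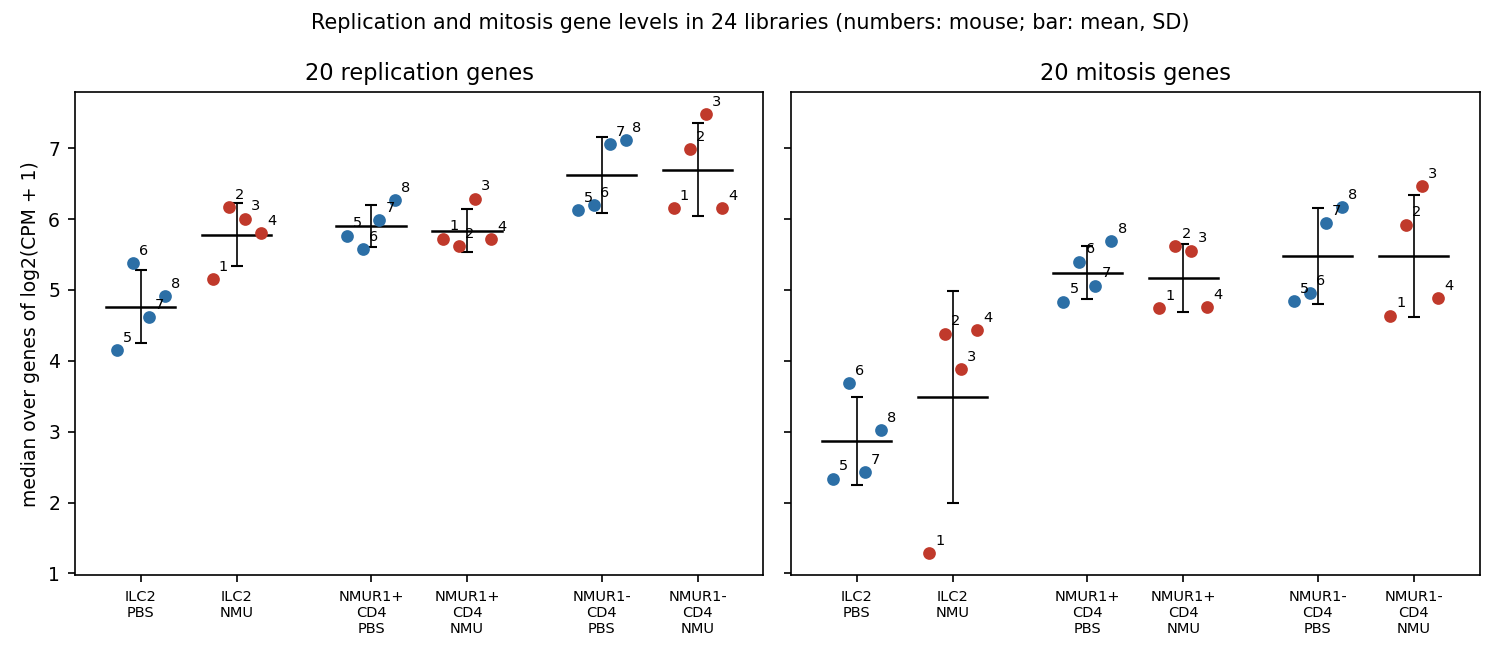
Median over the 20 replication genes (left) and the 20 mitosis genes (right) of log2(CPM + 1) in each of the 24 libraries, by population and treatment; points are libraries numbered by mouse, bars the mean and SD of 4. Mitosis genes of ILC2 lie below those of every T cell library, and ILC2 of NMU mouse 1 is the lowest point at 1.28.

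The first question was whether NMU changed these genes in ILC2. Of the 20 replication genes, 2 rose with NMU, Mcm5 and Asf1b, and none fell. Over all 11205 genes tested, 0.402% rose, 0.259% fell and 0.66% were called in either direction (edgeR quasi-likelihood test, Benjamini-Hochberg adjusted p under 0.05). The fitted log2 difference was above 0 for 18 of the 20 replication genes, with a median of 0.93, and for all 19 mitosis genes tested, with a median of 1.01. The median over all genes tested was -0.03, and 47.7% of them were above 0. None of the 19 mitosis genes passed, and Nek2 was too low in ILC2 to be tested there.

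Mcm5, a subunit of the helicase ring, gave 40.6, 44.7, 34.7 and 44.6 CPM in ILC2 of the PBS mice and 70.2, 126, 105 and 120 CPM in those of the NMU mice, each in the order of the mouse numbers. Every NMU library was above every PBS library. The difference was 2.53-fold (log2 1.34 ± 0.22 SE, edgeR adjusted p = 0.0275), and the gene lies at chr8:75109468-75128439 (Entrez 17218, protein coding). Asf1b, a histone chaperone that hands H3 and H4 to newly made DNA, gave 15.5, 35.7, 15.9 and 14.9 CPM in ILC2 of the PBS mice and 43.9, 88.4, 92.4 and 123 CPM in those of the NMU mice. The groups again did not overlap, and PBS mouse 6 was the highest of its group. The difference was 4.20-fold (log2 2.07 ± 0.39 SE, edgeR adjusted p = 0.0456), and the gene lies at chr8:83955694-83970195 (Entrez 66929, protein coding). Both calls sat near the threshold. Mcm5 kept its call in 1 of 8 fits that each left out a mouse (adjusted p 0.00702 to 0.0987; it passed without mouse 1) and Asf1b in 2 of 8 (0.0289 to 0.161; without mouse 1 or mouse 6), with log2 differences of 1.25 to 1.495 and 1.84 to 2.48.

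The helicase subunits as a group had log2 differences of 0.62 to 1.34, and Mcm5 alone of the 6 passed. Mcm2 gave 37.8, 78.7, 24.2 and 39.99 CPM in ILC2 of the PBS mice and 27.6, 111, 85.1 and 55.9 CPM in those of the NMU mice. Those groups overlapped (log2 0.62 ± 0.45 SE, adjusted p = 0.663). Mcm4 gave 28.7, 74.3, 50.1 and 63.0 CPM in ILC2 of the PBS mice and 86.9, 119, 99.6 and 123 CPM in those of the NMU mice, with no overlap (log2 0.97 ± 0.28 SE, adjusted p = 0.159). Mcm3, Mcm6 and Mcm7 had log2 differences of 0.94, 0.92 and 0.85 and did not pass (adjusted p 0.158 to 0.314).

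Genes that load or start the helicase were mixed. Cdc6, which loads the ring, gave 0, 6.57, 3.41 and 11.6 CPM in ILC2 of the PBS mice and 10.1, 44.6, 25.7 and 22.8 CPM in those of the NMU mice, and Gins2, a GINS subunit, 6.0, 8.23, 2.68 and 2.47 CPM in ILC2 of the PBS mice and 13.1, 17.2, 11.1 and 28.0 CPM in those of the NMU mice. Neither passed (log2 2.23 ± 1.04 SE, adjusted p = 0.421, and log2 1.83 ± 0.59 SE, adjusted p = 0.221), although the Gins2 groups did not overlap. Cdt1, the partner of CDC6 in loading, lay the other way, with 63.3, 66.7, 85.3 and 108 CPM in ILC2 of the PBS mice and 47.3, 62.7, 51.3 and 53.6 CPM in those of the NMU mice. Its PBS libraries were all above its NMU libraries, and it did not pass (log2 -0.61 ± 0.22 SE, adjusted p = 0.264). Mcm10, Cdc45 and Gins1, which act as the helicase starts, had log2 differences of 2.14, 1.32 and 0.11 with standard errors of 1.00 to 1.86.

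Nucleotide supply and fork genes had smaller standard errors. Rrm2, the S phase subunit of ribonucleotide reductase, gave 18.2, 56.6, 30.0 and 43.0 CPM in ILC2 of the PBS mice and 62.4, 120, 77.7 and 113 CPM in those of the NMU mice (log2 1.32 ± 0.35 SE, adjusted p = 0.133). Tyms, thymidylate synthase, gave 14.0, 20.1, 22.8 and 21.2 CPM in ILC2 of the PBS mice and 37.4, 34.9, 46.9 and 52.2 CPM in those of the NMU mice (log2 1.12 ± 0.27 SE, adjusted p = 0.106). Pcna gave 95.2, 104, 125.4 and 131 CPM in ILC2 of the PBS mice and 162, 143.3, 155 and 157.8 CPM in those of the NMU mice (log2 0.42 ± 0.15 SE, adjusted p = 0.265). All 3 had groups without overlap and none passed, and Rrm1, the large reductase subunit, had a log2 difference of 0.18 ± 0.19 SE. Ccne1, a cyclin that starts S phase with CDK2, was near the limit of detection at 0, 0, 5.54 and 6.25 CPM in ILC2 of the PBS mice and 0.0989, 10.7, 5.71 and 3.93 CPM in those of the NMU mice (log2 0.76 ± 1.72 SE, adjusted p = 0.914). Its relative Ccne2 and the hemimethylated-DNA reader Uhrf1 had log2 differences of -0.18 and 0.59 with standard errors of 1.35 and 1.15. Counted over the list, 7 replication genes had all NMU libraries above all PBS libraries (Mcm4, Mcm5, Pcna, Gins2, Rrm2, Tyms and Asf1b) and 1, Cdt1, all below, against 4.58% and 4.78% of all genes tested.

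**Figure D2:**
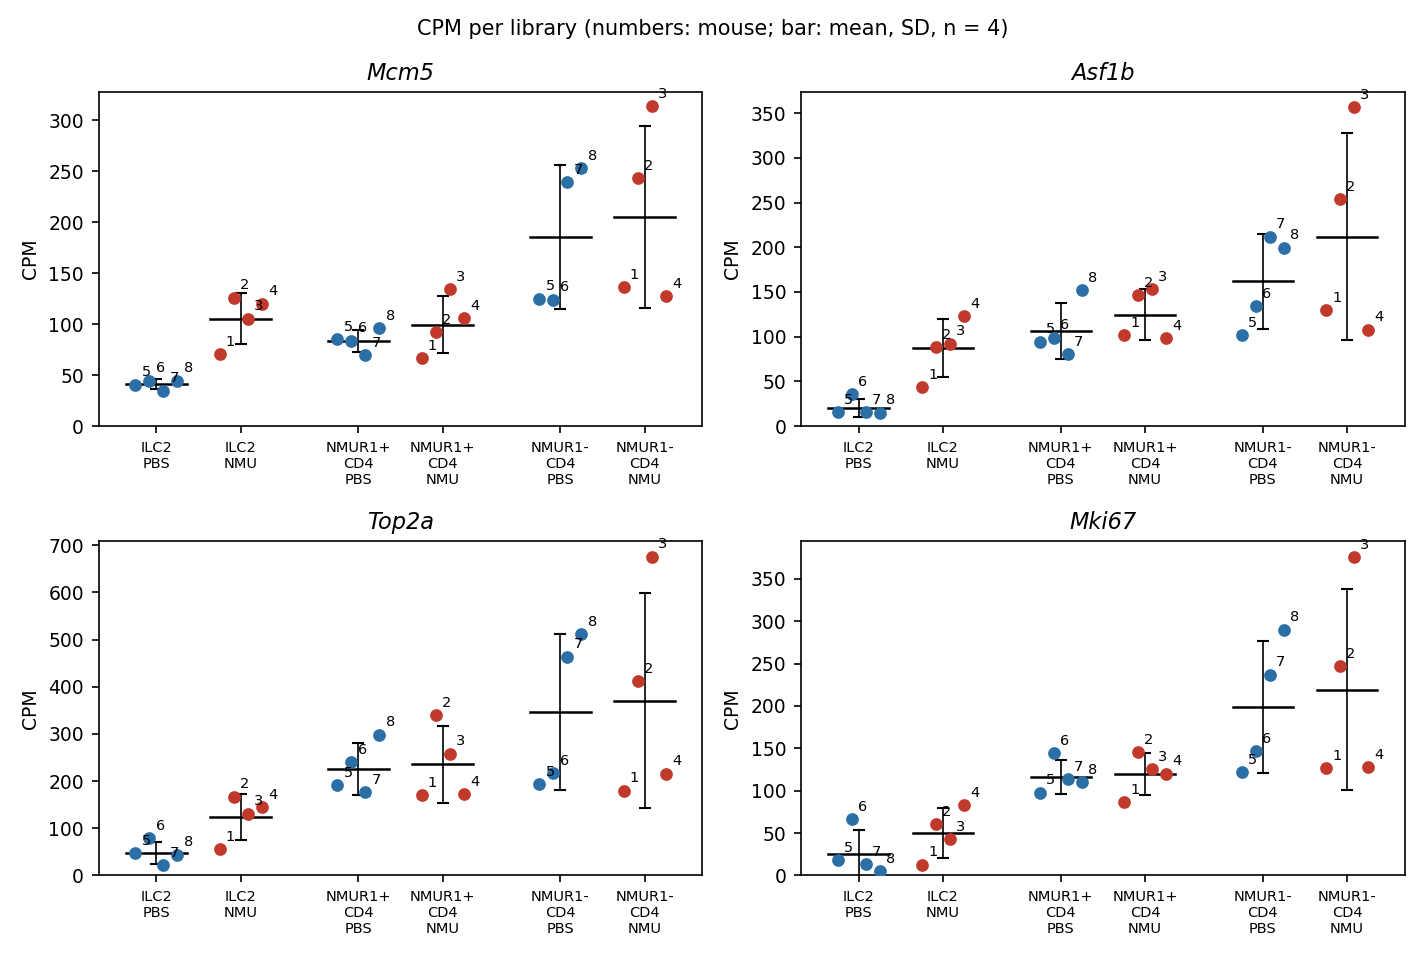
CPM per library of Mcm5, Asf1b, Top2a and Mki67 in the 6 groups; points are libraries numbered by mouse, bars the mean and SD of 4. In ILC2 the NMU and PBS points of Mcm5 and Asf1b do not overlap, while those of Top2a and Mki67 do.

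Mitosis genes had log2 differences as large but varied more between mice. Top2a, the topoisomerase that untangles sister chromatids, gave 46.7, 78.2, 21.7 and 44.2 CPM in ILC2 of the PBS mice and 55.3, 167, 131 and 144 CPM in those of the NMU mice. Mouse 1 fell among the PBS libraries (log2 1.37 ± 0.41 SE, adjusted p = 0.176). Mki67, whose protein Ki-67 coats mitotic chromosomes and is the usual marker of dividing cells, gave 18.2, 66.2, 12.8 and 4.79 CPM in ILC2 of the PBS mice and 12.7, 60.5, 42.9 and 82.7 CPM in those of the NMU mice. The groups overlapped, with PBS mouse 6 above 3 of the NMU mice (log2 0.95 ± 0.74 SE, adjusted p = 0.692).

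Cdk1, the mitotic kinase, gave 2.92, 11.4, 3.32 and 8.26 CPM in ILC2 of the PBS mice and 1.38, 16.6, 26.2 and 19.5 CPM in those of the NMU mice (log2 1.28 ± 0.81 SE, adjusted p = 0.600). Its cyclin Ccnb1 gave 0, 8.39, 2.58 and 6.48 CPM in ILC2 of the PBS mice and 0, 7.43, 3.5 and 8.08 CPM in those of the NMU mice (log2 0.11 ± 1.54 SE, adjusted p = 0.992), a difference that was negative in 4 of the 8 fits that left out a mouse. The partner kinases followed Cdk1 in having their lowest NMU value in mouse 1. Plk1, which drives mitotic entry, gave 0, 2.77, 2.77 and 4.86 CPM in ILC2 of the PBS mice and 3.76, 10.1, 5.33 and 18.8 CPM in those of the NMU mice (log2 1.85 ± 1.18 SE, adjusted p = 0.603). Aurkb, the kinase of the chromosomal passenger complex, gave 2.0, 1.82, 4.71 and 6.79 CPM in ILC2 of the PBS mice and 0, 18.9, 5.64 and 11.9 CPM in those of the NMU mice (log2 1.23 ± 1.24 SE, adjusted p = 0.781), and limma voom put its difference at -0.14. The other 13 tested mitosis genes lay between log2 0.55 (Cenpe, a kinetochore motor) and 2.03 (Cenpf, a kinetochore protein), with Birc5 (survivin, of the passenger complex) at 1.58 ± 0.70 SE and Ccnb2 at 1.39 ± 0.69 SE. Over the 19, none had groups without overlap, against 4.58% of all genes tested higher and 4.78% lower with NMU. In a list of 19 genes, none is not far from these shares.

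**Figure D3:**
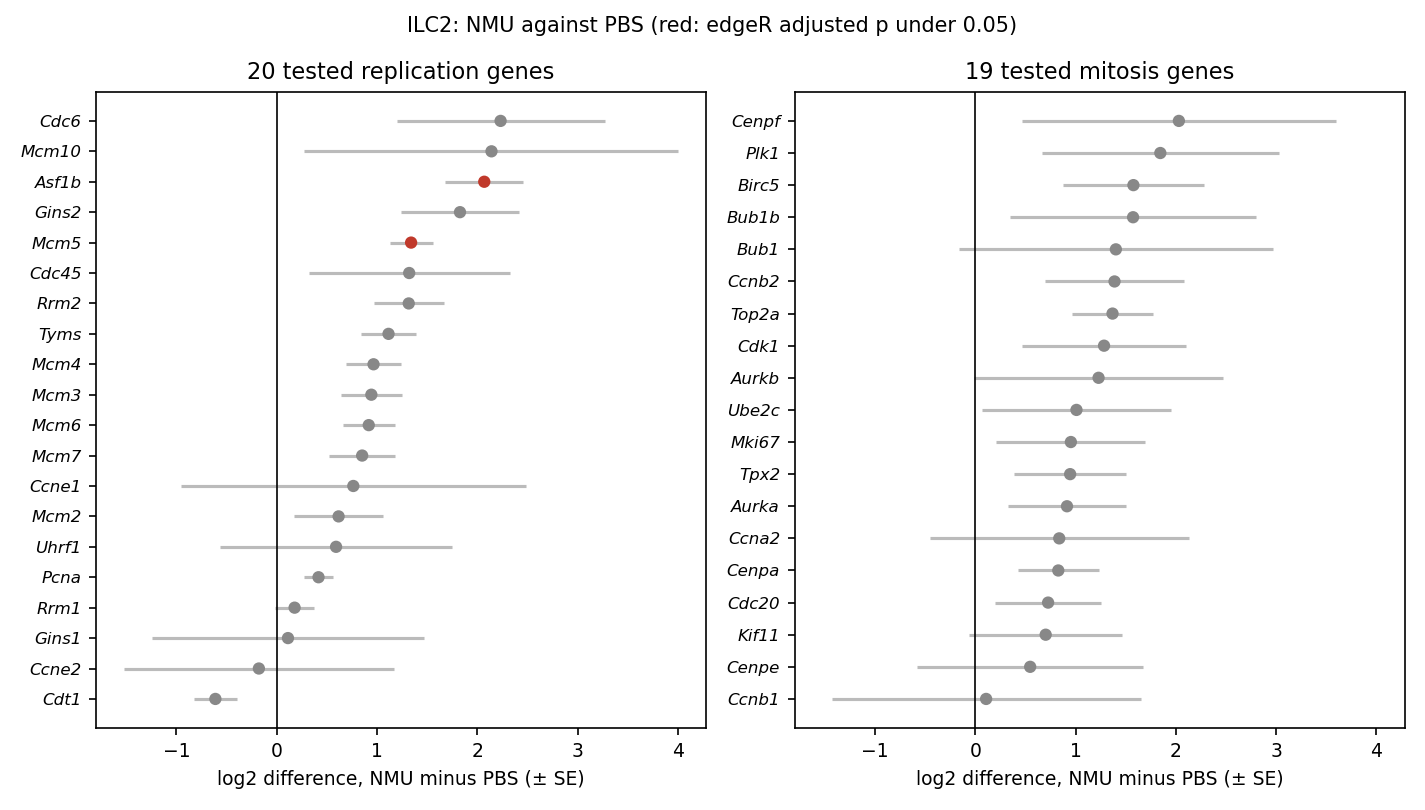
Log2 difference of NMU minus PBS in ILC2 with its standard error for the 20 tested replication genes (left) and 19 tested mitosis genes (right); red points have an edgeR adjusted p under 0.05. All but Cdt1 and Ccne2 lie above 0, and Mcm5 and Asf1b are red.

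The count of mitosis genes without overlap changed most with the library of mouse 1, which was singled out after its values were seen. Without it, 11 replication and 9 mitosis genes had all NMU libraries above all PBS libraries, against 7.05% of all genes. Without mouse 6 or mouse 8, 2 mitosis genes did (6.76% and 5.6% of all genes), and without any other mouse 0. The test called 3 replication genes without mouse 1 (Mcm5, Asf1b and Mcm6), where 36 of all 11721 genes were higher. Over the fits that each left out a mouse, the list medians ran from 0.77 to 1.14 for replication and from 0.85 to 1.57 for mitosis genes. Leaving out a mouse other than mouse 1 left 0 replication genes past the threshold, or 1 without mouse 6. Over the same 8 libraries DESeq2 called 6 replication genes and 1 mitosis gene (Top2a) and limma voom 1 and 0, while a fit of all 24 libraries called 7 and 1. Over all genes, DESeq2 called 454 and limma voom 73 of 11205, and the fit of all 24 libraries 1053 of 13509. Markers of other cells moved with treatment in these libraries. B and plasma cell markers summed to 2131 to 17104 CPM with PBS and 936 to 1758 with NMU (Pax5 at 0 in both), with 6 of 7 tested below 0 and none called. Macrophage and dendritic cell markers summed to 76.7 to 815 and 35.3 to 296 CPM, with 8 of 8 below 0 and 1 called lower; Itgax and Flt3 were at 0 with NMU. Fibroblast markers summed to 12.5 to 421 and 1.35 to 36.9 CPM, with 6 of 6 tested below 0, none called, and Lum and Mfap5 at 0 with NMU. Epithelial markers summed to 15.5 to 30.6 and 38.4 to 65.0 CPM, with 2 of 4 tested below 0 and 1 called higher, Epcam. Of the epithelial list, Muc2 and Lgr5 were at 0 with NMU. With the plasma cell gene Jchain and the macrophage gene Lyz2 as covariates, 5 of all 11205 genes passed and no member did, and the medians were 1.46 for replication and 1.87 for mitosis genes. The part of these cells in the result was otherwise not tested.

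Other cell cycle genes were read the same way. Of 42 further replication genes, 35 had a log2 difference above 0 in ILC2 (median 0.57), and of 40 tested further mitosis genes 36 did (median 1.199). Regulators of G1 and of E2F (23 tested) had a median of -0.18, and brakes of the cell cycle (18 tested) of 0.15. None of these 4 lists had a gene past the threshold in this comparison.

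In the T cells, no member passed, and neither did any of the 12061 genes tested in NMUR1+ or of the 12103 tested in NMUR1- CD4 T cells, so 0% were called in either (edgeR; 307 and 877 genes had an unadjusted p under 0.05, DESeq2 called 2 and 21 genes and limma voom 0 and 0). The median log2 differences of NMU minus PBS were 0.04 for replication and -0.04 for mitosis genes in NMUR1+ cells, and 0.19 and 0.09 in NMUR1- cells. No member had an unadjusted p under 0.05 in either. Mcm5 gave 85.3, 83.8, 69.6 and 96.0 CPM with PBS and 66.4, 92.1, 134 and 106 CPM with NMU in NMUR1+ CD4 T cells, and 124.997, 124.013, 239 and 253 CPM with PBS and 136, 243, 314 and 127 CPM with NMU in NMUR1- CD4 T cells. Asf1b gave 94.4, 98.7, 80.5 and 152 CPM with PBS and 101, 146.3, 153 and 98.3 CPM with NMU in NMUR1+ CD4 T cells, and 101.6, 134, 212 and 200 CPM with PBS and 130, 254, 356 and 108 CPM with NMU in NMUR1- CD4 T cells. In both populations the treatments overlapped for these genes. In NMUR1+ cells the libraries of Pcna (log2 0.22 ± 0.12 SE) and Mcm6 (0.19 ± 0.11 SE) did not overlap, 2 of 20 replication genes against 1.04% of all genes, and none lay the other way (0.829%). In NMUR1- cells no member had groups without overlap, against 1.91% of all genes higher and 2.57% lower with NMU.

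The difference between the NMU effects was tested directly, in 1 fit of all 24 libraries. Of all 13509 genes, 0.725% differed between ILC2 and NMUR1+ cells (0.222% higher in ILC2, 0.503% lower) and 0.533% between ILC2 and NMUR1- cells (0.155% higher, 0.378% lower). Among the members 1 passed, Nek2, a centrosome kinase that separates the spindle poles, against NMUR1+ cells. It lies at chr1:191821449-191833049 (Entrez 18005, protein coding). It had 0, 0, 0 and 4 counts in ILC2 of PBS mice 5 to 8 and 2, 110, 53 and 18 counts in those of NMU mice 1 to 4. In NMUR1+ cells it gave 15.8, 22.4, 21.7 and 17.0 CPM with PBS and 12.8, 14.2, 21.0 and 13.2 CPM with NMU. In NMUR1- cells it gave 11.5, 7.65, 36.01 and 37.0 CPM with PBS and 11.0, 31.9, 39.6 and 9.44 CPM with NMU. The treatments thus overlapped in both T cell populations, and in ILC2 mouse 1 lay below PBS mouse 8. Nek2 was too low in ILC2 to pass the filter on low counts there, and it entered the fit of 24 libraries through its T cell counts. The fitted difference of effects was log2 5.93 ± 1.33 SE (edgeR adjusted p = 0.0395), a size that depends on how counts near 0 are handled. With the mouse as a block the adjusted p was 0.0666, with limma voom 0.268 and without a filter on low counts 0.0548. Of the 8 fits that each left out a mouse it passed in 1, that without mouse 1. Against NMUR1- cells the value was 5.61 ± 1.33 SE (adjusted p = 0.0577). These comparisons share the ILC2 libraries. The effect of NMU on Mcm5 was larger in ILC2 than in NMUR1+ cells by log2 1.11 ± 0.40 SE (adjusted p = 0.200) and on Asf1b by 1.85 ± 0.53 SE (0.104), neither past the threshold. Over the list, 18 of 20 replication and 20 of 20 mitosis genes had a difference of effects above 0, with medians of 0.88 and 1.02 against -0.04 over all genes.

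ILC2 were then compared with both T cell populations over all mice. Against NMUR1- cells, 18 of 20 replication genes and 20 of 20 mitosis genes were lower in ILC2 and none was higher, where 24.1% of the 13509 genes tested were lower, 16.4% higher and 40.5% called. The median log2 differences were -1.65 for replication and -2.42 for mitosis genes against -0.12 over all genes. The largest among mitosis genes were those of Nek2 (-5.18 ± 0.69 SE, resting on ILC2 counts near 0), Ccnb1 (-3.12 ± 0.66) and Ccnb2 (-3.06 ± 0.40). Among replication genes they were Cdc6 (-2.82 ± 0.56), Ccne1 (-2.64 ± 0.77) and Rrm2 (-2.60 ± 0.34), and these 6 had adjusted p from 2.24e-06 to 0.00873. Cdc45 and Cdt1 were the 2 that did not pass. Nek2 entered this fit, which also serves the comparison with NMUR1+ cells, through its T cell counts, so the filter largely set its being lower.

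Against NMUR1+ cells more mitosis than replication genes passed, although the fitted difference was below 0 for 20 and 19 of 20. Whether the lists differ from each other was not tested here. All mitosis genes except the checkpoint kinase Bub1 were lower in ILC2, 19 of 20, but 9 of 20 replication genes, where 23.5% of genes were lower and 15.1% higher (38.6% called). The medians were -1.86 and -0.94 against -0.10 over all genes. Nek2 (-4.75 ± 0.68 SE), Ccnb1 (-2.79 ± 0.65) and Ccnb2 (-2.58 ± 0.40) led again, and Cdc6 (-1.79 ± 0.54), Rrm2 (-1.61 ± 0.33) and Ccne2 (-1.59 ± 0.52) led the replication genes. Ccne2 did not pass without mouse 4, 5 or 6, nor Cdc6 without mouse 7. Most of the helicase did not pass: Mcm2, Mcm3, Mcm5 and Mcm7 had log2 differences of -0.29, -0.38, -0.47 and -0.36, while Mcm4 (-1.05 ± 0.19 SE) and Mcm6 (-0.98 ± 0.14) were lower. Mcm5 passed with the mouse as a block (adjusted p = 0.0347, against 0.0634) and with DESeq2 (0.0460). Cdt1 was the 1 member higher in ILC2 (log2 0.59 ± 0.18 SE, edgeR adjusted p = 0.0143), in 7 of 8 mice, a call that ended without mouse 2 (adjusted p = 0.0528). Markers of other cells moved with this comparison too: of the B and plasma cell markers 10 of 10 tested were lower in ILC2 than in NMUR1+ cells and 5 of 10 lower than in NMUR1- cells, and of the macrophage and dendritic cell markers 9 and 3 of 10, whose part was not tested.

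Single libraries of the mitosis genes Top2a, Mki67 and Ccnb1 had ILC2 lowest as well. Top2a gave 191, 240, 176 and 298 CPM with PBS and 170.4, 340, 258 and 173 CPM with NMU in NMUR1+ CD4 T cells, and 193, 217, 464 and 512 CPM with PBS and 179, 411, 676 and 216 CPM with NMU in NMUR1- CD4 T cells, so that every T cell library was above every ILC2 library. Mki67 gave 97.5, 144, 113 and 110 CPM with PBS and 86.8, 145.6, 126 and 120 CPM with NMU in NMUR1+ CD4 T cells, and 122, 147, 237 and 290 CPM with PBS and 126, 247, 376 and 128 CPM with NMU in NMUR1- CD4 T cells, and again none overlapped with ILC2. Ccnb1 gave 19.8, 41.0, 28.2 and 48.6 CPM with PBS and 15.1, 37.4, 43.8 and 19.2 CPM with NMU in NMUR1+ CD4 T cells, and 24.6, 24.1, 50.6 and 55.0 CPM with PBS and 18.6, 51.8, 76.1 and 17.8 CPM with NMU in NMUR1- CD4 T cells, against at most 8.39 CPM in ILC2. Across the lists, 8 mitosis genes and 1 replication gene (Rrm2) had no overlap between ILC2 and NMUR1+ libraries, against 6.14% of all genes, and 10 and 3 had none between ILC2 and NMUR1- libraries, against 8.53%. In each of these genes ILC2 lay below, and none lay above (4.09% and 5.86% of all genes). Cdk1 gave 34.1, 41.4, 38.2 and 45.3 CPM with PBS and 25.6, 38.1, 43.3 and 26.3 CPM with NMU in NMUR1+ CD4 T cells, and 23.6, 27.8, 58.0 and 58.8 CPM with PBS and 23.0, 55.9, 85.9 and 30.0 CPM with NMU in NMUR1- CD4 T cells. Plk1 gave 17.9, 13.2, 23.1 and 24.9 CPM with PBS and 9.85, 14.5, 35.8 and 17.0 CPM with NMU in NMUR1+ CD4 T cells, and 14.5, 17.7, 47.0 and 47.4 CPM with PBS and 12.9, 44.4, 60.9 and 16.2 CPM with NMU in NMUR1- CD4 T cells. Aurkb gave 25.1, 34.1, 17.8 and 33.6 CPM with PBS and 30.1, 45.0, 37.4 and 27.0 CPM with NMU in NMUR1+ CD4 T cells, and 28.3, 32.2, 59.1 and 65.0 CPM with PBS and 22.7, 54.0, 74.2 and 23.8 CPM with NMU in NMUR1- CD4 T cells. Cdk1 and Plk1 overlapped with ILC2 in both T cell populations, and Aurkb in NMUR1+ cells.

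The remaining comparison set NMUR1+ against NMUR1- CD4 T cells. Replication genes were lower in NMUR1+ cells: 8 of 20 passed, all 6 subunits of the helicase ring together with Pcna and Rrm1, where 2.83% of genes were lower, 5.49% higher and 8.31% called. None of the 20 mitosis genes passed. All 40 members had a log2 difference below 0, with medians of -0.75 for replication and -0.49 for mitosis genes against -0.01 over all genes. Whether the lists differ from each other was not tested. Libraries did not overlap for Mcm6, 1 of 40 members, against 1.01% of all genes lower and 2.29% higher. Mcm5 had the largest difference that passed (log2 -1.09 ± 0.20 SE, edgeR adjusted p = 0.00104), then Mcm7 (-0.92 ± 0.21, 0.00678) and Mcm2 (-0.92 ± 0.27, 0.0344). Mcm5 was lower in NMUR1+ cells in all 8 mice. Mcm2 gave 70.1, 52.5, 50.5 and 84.6 CPM with PBS and 72.1, 45.3, 89.4 and 86.9 CPM with NMU in NMUR1+ CD4 T cells, and 113, 87.9, 168.017 and 176 CPM with PBS and 89.8, 138, 180 and 88.3 CPM with NMU in NMUR1- CD4 T cells. It was lower in all 8 mice too, but its call ended with the mouse as a block (adjusted p = 0.0529) and without mouse 2, 3, 5, 7 or 8. Pcna gave 137, 139, 136 and 124.7 CPM with PBS and 144, 158.2, 172 and 149 CPM with NMU in NMUR1+ CD4 T cells, and 150, 187, 224 and 209 CPM with PBS and 172, 244, 291 and 179 CPM with NMU in NMUR1- CD4 T cells (log2 -0.52 ± 0.11 SE, adjusted p = 0.00333).

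Rrm2 gave 154, 159, 162 and 192 CPM with PBS and 139, 193, 303 and 134 CPM with NMU in NMUR1+ CD4 T cells, and 160.1, 206, 460 and 494 CPM with PBS and 167, 444, 742 and 174 CPM with NMU in NMUR1- CD4 T cells (log2 -0.99 ± 0.32 SE, adjusted p = 0.0636). Ccne1 gave 13.1, 10.5, 7.98 and 14.9 CPM with PBS and 3.0, 13.9, 15.3 and 14.2 CPM with NMU in NMUR1+ CD4 T cells, and 7.81, 18.9, 36.1 and 31.2 CPM with PBS and 9.82, 33.2, 48.3 and 8.71 CPM with NMU in NMUR1- CD4 T cells (log2 -1.06 ± 0.73 SE, adjusted p = 0.449). Neither passed although their differences were as large as those of the helicase genes. Of the 20 replication genes 12 were lower in NMUR1+ cells in 8 of 8 mice, and 19 in at least 7, and of the 20 mitosis genes 2 and 3. This count by mouse was made for the members only, so no share over all genes stands beside it. Without mouse 7, 5 replication genes passed, where 233 of all 13789 genes tested were lower in NMUR1+ cells. B and plasma cell markers (7 of 10 tested called higher) and macrophage and dendritic cell markers (5 of 10 called higher, none at 0) moved with this comparison. The first summed to 2209 to 99795 CPM in NMUR1+ and 1108 to 11434 CPM in NMUR1- libraries, and the second to 873 to 3157 and 246 to 869 CPM. With immunoglobulin genes left out of the counts, 8 replication and 0 mitosis genes again passed. The part of these cells in the result was not tested further.

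**Figure D4:**
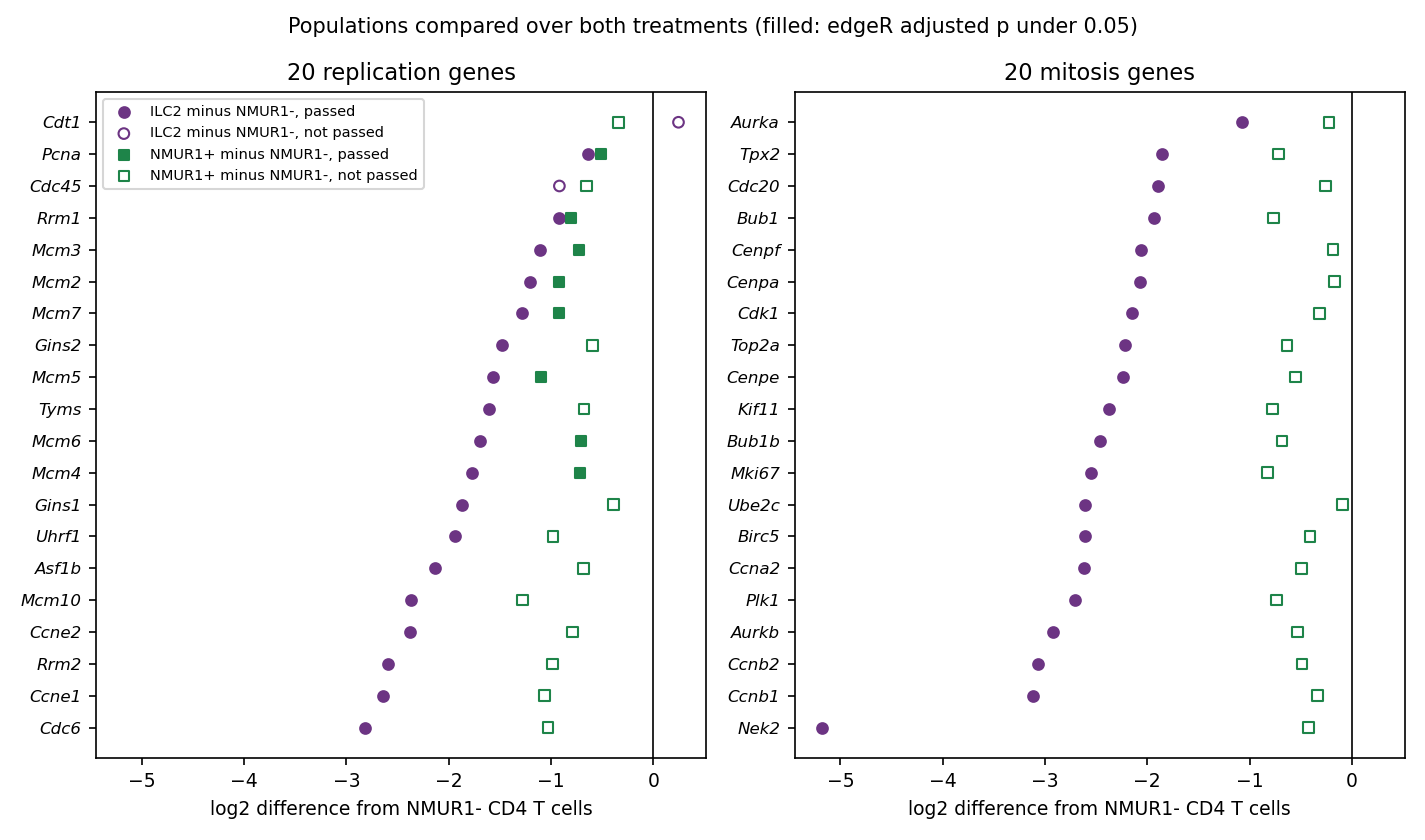
Log2 difference of ILC2 (circles) and of NMUR1+ CD4 T cells (squares) from NMUR1- CD4 T cells over both treatments for each member; filled symbols have an edgeR adjusted p under 0.05. Filled squares are 8 replication genes and no mitosis gene, while circles are filled for 18 and 20.

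Mice differed widely within the NMUR1- cells, and not by treatment. The median log2(CPM + 1) of the replication genes was 6.16, 6.99, 7.48 and 6.15 in NMU mice 1 to 4 and 6.13, 6.19, 7.05 and 7.11 in PBS mice 5 to 8. That of the mitosis genes was 4.64, 5.92, 6.46 and 4.88, and 4.84, 4.95, 5.94 and 6.16. Mice 2, 3, 7 and 8 were thus high and mice 1, 4, 5 and 6 low for both lists, with both treatments on each side. The highest NMUR1- library exceeded the lowest by a median of 2.91-fold for replication genes (Mcm6 1.89 to Ccne1 6.18) and 3.77-fold for mitosis genes (Cenpa 1.93 to Nek2 5.17). Mouse 3 was the highest for 18 of 20 replication and 20 of 20 mitosis genes, an animal singled out after its values were seen. In NMUR1+ cells the median spread was 2.03-fold and 2.36-fold, and mouse 3 was the highest for 10 and 4 genes. The immunoglobulin share of the NMUR1- libraries was 2.83%, 0.301%, 0.450% and 5.58% in mice 1 to 4 and 3.95%, 0.446%, 0.378% and 0.146% in mice 5 to 8, whose part in the spread was not tested.

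**Figure D5:**
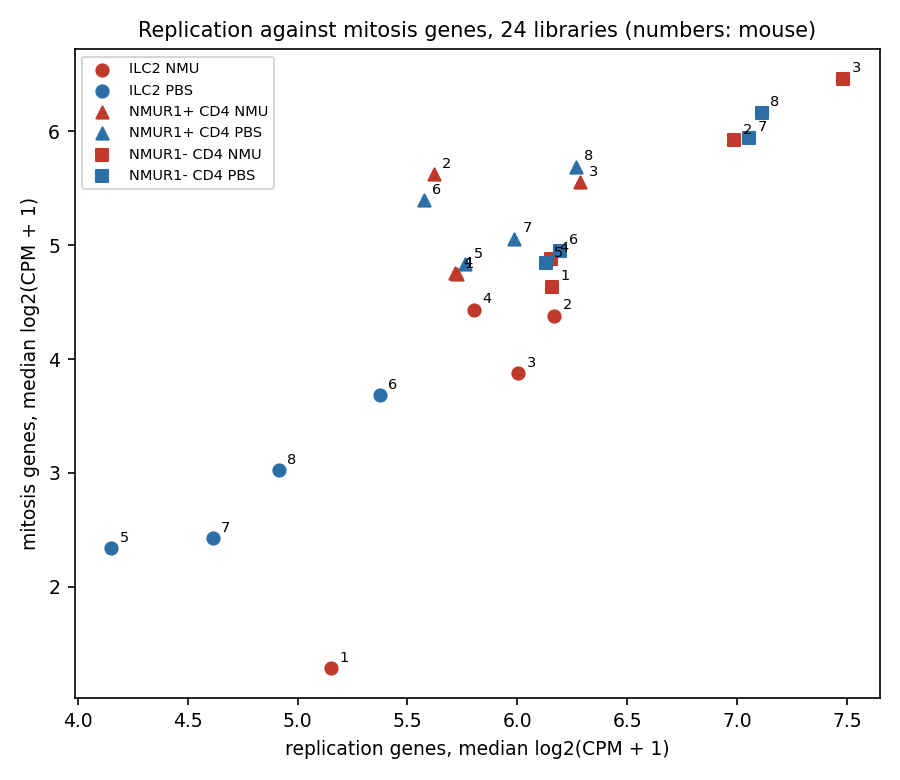
Median log2(CPM + 1) of the replication genes (x axis) against that of the mitosis genes (y axis) in 24 libraries numbered by mouse; symbols give the population, colours the treatment. NMUR1- cells of mice 2, 3, 7 and 8 lie at the upper right, and ILC2 of NMU mouse 1 lies below the other ILC2 at a replication value of 5.15.

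Other genes of the pathway were counted in the same population comparisons. Of 42 further replication genes, 25 were lower in ILC2 than in NMUR1- cells and 1 higher, where 24.1% of all genes were lower and 16.4% higher. Against NMUR1+ cells 10 of the 42 were lower and 2 higher, a share of lower genes near the 23.5% of all genes, of which 15.1% were higher. Gmnn, the inhibitor of CDT1, was the lowest in both (log2 -2.67 ± 0.35 SE and -1.95 ± 0.35), followed against NMUR1- cells by the checkpoint adaptor Clspn (-2.05 ± 0.35) and the thymidine kinase Tk1 (-1.91 ± 0.34). Orc4, of the origin recognition complex, was higher in both (0.54 ± 0.15 and 0.75 ± 0.15). Of 45 further mitosis genes, 42 and 36 were lower in ILC2, led by the kinesin Kif18b (-5.48 ± 1.16 and -4.52 ± 1.13), and 1 was higher in both, the midzone kinesin Kif23 (0.55 ± 0.22 and 0.63 ± 0.22). The cohesin protector Sgo1 (-4.32 ± 0.85) and the checkpoint kinase Ttk (-4.12 ± 0.87) came next against NMUR1- cells. Kif18b, Sgo1 and Ttk were too low in ILC2 to be tested for NMU there, so the size of their differences depends on counts near 0. Of the 45 genes, 40 passed the filter on low counts within ILC2. The others entered the fit of 24 libraries through their T cell counts, so that filter largely set their being lower in ILC2. Between NMUR1+ and NMUR1- cells, 5 further replication genes were lower, among them Clspn (-1.11 ± 0.34), and 1 further mitosis gene, Hmgb2 (-0.86 ± 0.20), where 2.83% of all genes were lower.

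Regulators of G1 and of E2F were counted next. In all, 4 of 25 were higher and 11 lower in ILC2 than in NMUR1- cells, against 16.4% higher and 24.1% lower over all genes. The share of higher regulators was thus near that of all genes. Against NMUR1+ cells 4 were higher and 7 lower, beside 15.1% and 23.5% of all genes. Ccnd1, the cyclin that starts G1 with CDK4, and Myc, which drives growth, were higher in ILC2 than in NMUR1- cells (log2 1.94 ± 0.28 SE and 1.85 ± 0.18) and in NMUR1+ than in NMUR1- cells (0.89 ± 0.28 and 0.66 ± 0.18). Tfdp2, a partner of E2F proteins, was higher in ILC2 than in NMUR1- cells (0.97 ± 0.24), and its relative Tfdp1 was lower (-1.54 ± 0.29). Mybl2, of the complex that starts mitotic transcription, was lower in ILC2 than in NMUR1- cells (-4.18 ± 0.86), as were E2f7 (-3.23 ± 0.86) and E2f6 (-2.85 ± 0.77), repressors of the E2F family. Mybl2 and E2f7 were too low in ILC2 to be tested for NMU there and entered the fit of 24 libraries through their T cell counts. E2f6 averaged 2.19 CPM over the 8 ILC2 libraries. The sizes of these 3 differences thus depend on counts near 0. Among 18 tested brakes, 4 were higher and 6 lower in ILC2 than in NMUR1- cells, beside the same 16.4% and 24.1% of all genes. Against NMUR1+ cells 6 brakes were higher and 5 lower, beside 15.1% and 23.5%. Cdkn1a, which encodes the CDK inhibitor p21, was higher in ILC2 than in NMUR1- cells by log2 2.55 ± 0.15 SE and in NMUR1+ than in NMUR1- cells by 0.95 ± 0.14 (adjusted p = 0.00015), and Btg2, an antiproliferative gene, was higher in ILC2 by 1.57 ± 0.12. Tob1, of the same family as Btg2, was higher by 0.53 ± 0.18. Cdkn3 (-2.73 ± 0.65), Cdkn2c (-1.98 ± 0.33) and Klf2 (-1.73 ± 0.38), all listed as brakes, were lower in ILC2 than in NMUR1- cells. Between NMUR1+ and NMUR1- cells, 2 of 25 regulators were higher and 1 lower, E2f4 (-0.69 ± 0.14 SE). Of the 18 brakes, 1 was higher there, Cdkn1a, and 2 lower, Klf2 (-1.25 ± 0.37) and Btg1 (-0.53 ± 0.14). Over all genes 5.49% were higher and 2.83% lower in that comparison.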

How the data were processed

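Per the labels' protocols, RNA came from RNeasy Micro columns and libraries from a low-input NEBNext kit, which marks neither strand nor molecules. The submitters' processing notes name STAR 2.5.3 and mm10. How reads were counted, on which annotation and whether by strand, is not given in the sources used here. Deposited values are the authors' whole-number counts per gene, not normalized and covering 27179 Entrez identifiers, of which 25275 matched a RefSeq symbol. Overlapping, antisense and near-identical genes are uncertain where the counting could mix their reads.

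Tests used edgeR 4.0.16 (R 4.3.3) with filterByExpr with a minimum count of 10, trimmed mean of M values scaling, robust quasi-likelihood fits and Benjamini-Hochberg adjustment over all genes tested, threshold 0.05. NMU was compared with PBS on the 8 libraries of a population; populations and differences of NMU effects were tested in 1 fit of 24 libraries with 6 group means. Levels are CPM, and list levels are medians of log2(CPM + 1); no test was run on a list. Tests were checked on simulated data, with changes put into well-expressed genes, a single dispersion and no effect of the mouse. That check does not cover members near 0 counts or the pairing by mouse.

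The members and lists were chosen with earlier results of these data known. Values in every library are given for members past the threshold in an NMU comparison and for 12 members named whatever their test; Tyms, Gins2, Mcm4, Cdc6 and Cdt1 in ILC2, and members named with a fitted value alone, were added after their values were seen. In population comparisons the 3 largest member differences per list and direction are named, and up to 3 per direction of the other lists.

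Libraries with the same mouse number come from the same animal and are paired by that. The correlation of their deviations from the group means had a median of 0.258 over the 8 mice between NMUR1+ and NMUR1- libraries (7 over 0.1), and of 0.0672 and 0.0626 between ILC2 and each of them (3 and 1 over 0.1). The fit without the mouse as a block is the one reported. Alternatives were other size factors, no filter, DESeq2 1.42.0, limma voom 3.58.1, immunoglobulin genes left out, each mouse left out, all libraries in 1 fit and the block. The marker covariates and a 20 CPM minimum were added after seeing the data.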

Additional observations from a re-analysis of the deposited data

Results flagged for a closer look

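Single libraries far from the other 3 of their group were found in 4 of 90 groups tested with Dixon's criterion, which chance alone flags in about 1 of 20 groups. NMU mouse 3 had a replication median of 6.29 log2(CPM + 1) in NMUR1+ CD4 T cells, with the nearest library at 5.72. PBS mouse 6 had 35.7 CPM of Asf1b in ILC2, with the nearest library at 15.9 CPM, and still lay below every NMU library. NMU mouse 1 had 3.00 CPM of Ccne1 in NMUR1+ cells, with the nearest at 13.9 CPM. PBS mouse 8 had 0.309 CPM of Nek2 in ILC2, from 4 counts, where the other 3 PBS libraries had none. The effect of NMU on Nek2 differed between ILC2 and NMUR1+ cells by log2 5.93 in a test of the difference itself (edgeR adjusted p = 0.0395). Nek2 was too low in ILC2 to pass the filter there and entered that fit through its T cell counts, so this value rests on those same counts near 0 and no NMU effect was tested for it in ILC2 alone.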

How the results depend on the processing

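Counts of members called under NMU in ILC2 moved most. Against 2 replication and 0 mitosis genes higher, DESeq2 called 6 and 1, limma voom 1 and 0, the fit of all 24 libraries 7 and 1, and the marker covariates 0 and 0; leaving out a mouse gave 0 to 3 replication genes. All genes called in this comparison numbered 74, against 454 with DESeq2, 73 with limma voom, 1053 in the fit of all 24 libraries, 5 with the marker covariates and 12 to 63 with a mouse left out. The count of replication genes higher in ILC2 than in NMUR1+ cells was 0 to 1 with a mouse left out, beside 1832 to 2044 of all genes. That of replication genes lower in NMUR1+ than in NMUR1- cells was 5 to 8, beside 218 to 335 of all genes. For the difference of NMU effects between ILC2 and NMUR1+ cells, the mitosis count of 1 was 0 without a filter, with limma voom and with the replicate block. It was 0 to 1 with a mouse left out, while DESeq2 called 2 replication genes, and 512 of all 13509 genes. Against NMUR1- cells DESeq2 called 1 replication and 1 mitosis gene, and 386 of all 13509 genes. The replicate block also ended Mcm2 (adjusted p = 0.0529) and added Mcm5 in ILC2 against NMUR1+ cells (0.0347), and changed no other call among the genes recomputed singly. Differences that changed sign were Aurkb in ILC2 with limma voom (-0.14, against 1.23), and with a mouse left out Ccnb1 in ILC2 (-0.29 to 0.64), Mki67 (-0.069 to 0.16) and Top2a (-0.18 to 0.22) in NMUR1+ cells, and Mcm5 (-0.14 to 0.33), Mki67 (-0.26 to 0.38) and Top2a (-0.37 to 0.35) in NMUR1- cells. The cause was not tested in any of these. Genes near 0 counts in ILC2 limit what this depth can show.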
